A study of Mus musculus with 6 samples.

Results

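The genes described here are 8 transcripts of the podocyte and its slit diaphragm: Nphs1, Podxl, Synpo, Wt1, Ptpro, Magi2, Plce1 and Cd2ap. They were taken by symbol from a deposited table of 17550 genes measured in mouse kidney, and all 8 are in it. The libraries were poly(A)-selected from total RNA of kidneys that had been perfused with saline, 3 labelled Control and 3 labelled KC-Tie2. KC-Tie2 is a psoriasis model whose skin keratinocytes overexpress Tie2, a receptor tyrosine kinase, from a transgene. The labels give no strain, sex or age, no promoter for the transgene and no treatment. The headers of the authors' deposited comparison call the Control group WT, and no further genotype of the Control mice is given. Whether replicate samples came from different animals is not said, so p-values measure only the spread between these samples. The comparison asks what differs in the kidney when the skin has psoriasis-like disease.

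Podocytes are the epithelial cells that wrap the capillaries of the glomerulus. Their interlocking foot processes leave narrow gaps bridged by the slit diaphragm, a specialised junction that is the last layer of the filtration barrier. The diaphragm is built from nephrin, tethered to actin inside the foot process by adaptor proteins, and loss of its components lets protein into the urine. Some of the 8 genes are nearly restricted to podocytes in the kidney (Nphs1, Synpo, Wt1), whereas Podxl is also made by endothelial cells and Cd2ap by many cell types. The podocyte markers Nphs1, Podxl, Synpo, Wt1 and Cdkn1c, 5 of 5, were in the table, each at 221 or more in every library. All but Cdkn1c are among the 8 genes, whose presence in the table is stated above. The kidney markers Slc34a1 and Umod were at 60188 or more. In a bulk library, fewer cells of a type and less RNA per cell cannot be told apart.

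Values are the authors' normalized counts, given as mean ± SD (n = 3 per genotype). Their sums lay between 23647811 and 25495455 per library. Read from the spacing of low values, the depth was about 18.8 to 29.5 in units of 1e+06 estimated counts. The fewest estimated counts behind any value of the 8 genes were 163, for Wt1 in Control replicate 3, a counting error of 7.8%. Podxl had the most, 8364 in KC-Tie2 replicate 2, with a counting error of 1.1%. These errors cover counting only. Differences between genotypes are KC-Tie2 minus Control on the log2(normalized count + 1) scale with their SE. Their p-values come from a limma fit across 17539 genes, adjusted by Benjamini-Hochberg over all of them, and a gene was called at an adjusted p under 0.05.

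All 8 genes had a log2 difference above 0, against 50.3% of all genes tested, but none was called. Among all genes tested, 297 were called, which is 1.69%, with 0.855% higher and 0.838% lower in KC-Tie2 kidneys. The median log2 difference of the 8 genes was 0.27, and that of all genes tested was 0.0012. At an unadjusted p under 0.05, 4 of the 8 were higher (Nphs1, Plce1, Podxl and Synpo), a level that 7.57% of all genes reached in that direction. In the authors' deposited table, none of the 8 genes had a step-up FDR under 0.05, where 686 genes (3.91%) did.

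Nphs1 encodes nephrin, the transmembrane protein of the immunoglobulin superfamily whose extracellular domains span the slit. Its normalized counts were 1008, 949 and 936 in Control replicates 1 to 3 and 1337, 1333 and 1022 in KC-Tie2 replicates 1 to 3. All 3 KC-Tie2 libraries lay above all 3 Control libraries, the third by a narrow margin. A lack of overlap with KC-Tie2 above Control was seen at 9.96% of all genes tested. Nphs1 went from 964 ± 38.6 to 1231 ± 181, a log2 difference of 0.34 ± 0.10 and a fold of 1.27 with a 95% interval of 1.09 to 1.48 (limma unadjusted p = 0.00594, adjusted p = 0.128). The authors' deposited table gives Nphs1 a ratio of 1.28 and an FDR of 0.0672, the lowest of the 8 genes. The gene (ENSMUSG00000006649) lies on chromosome 7, 30157740 to 30186648, in the mm39 build that the submitters' processing notes name. Nphs1, Plce1 and Magi2 each overlap a processed pseudogene on the opposite strand. The means of those pseudogenes over the 6 libraries were 72.6 for Rps12-ps4 in Nphs1, 64.8 for Gm8717 in Plce1 and 67.8 for Gm21009 in Magi2. Overlap was taken over whole gene spans, introns included, and shared exon bases were not checked. Reads from any shared exon bases could not be told apart if strand was not used in counting, which is not stated.

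**Figure D1:**
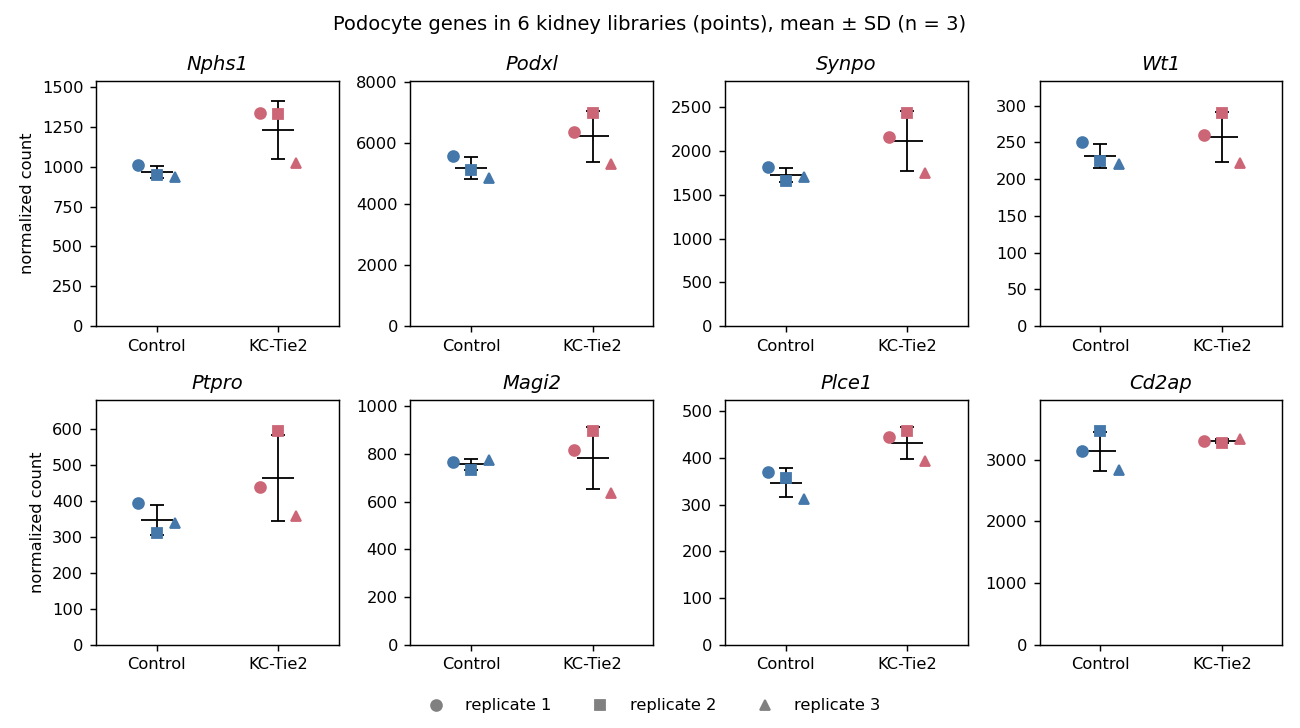
Normalized counts (y axis, starting at 0) of the 8 podocyte genes in the 3 Control and 3 KC-Tie2 libraries. Symbols mark the replicate number, and black bars show mean ± SD (n = 3). KC-Tie2 replicates 1 and 2 stand above all Control libraries at 7 of 8 genes, while replicate 3 does so only at Nphs1 and Plce1.

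Plce1 encodes the signalling enzyme phospholipase C epsilon 1 and was the other gene without overlap. It had 371, 358 and 313 in Control and 446, 457 and 393 in KC-Tie2 libraries. The KC-Tie2 libraries again lay above every Control library, with replicate 3 closest to them. The fold of Plce1 was 1.24 (95% interval 1.06 to 1.46, log2 difference 0.32 ± 0.11, limma adjusted p = 0.17). Plce1 (ENSMUSG00000024998) lies on chromosome 19, 38469557 to 38773474.

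Podxl encodes podocalyxin, the negatively charged sialomucin of the podocyte surface that keeps neighbouring foot processes apart. It had 5561, 5116 and 4834 in Control and 6354, 6972 and 5310 in KC-Tie2 libraries. KC-Tie2 replicate 3 fell between the Control values, so the groups overlapped. The fold of Podxl was 1.2 (95% interval 1.03 to 1.39, log2 difference 0.26 ± 0.10, limma adjusted p = 0.235). Podxl (ENSMUSG00000025608) lies on chromosome 6, 31496423 to 31540916.

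Synpo encodes synaptopodin, an actin-associated protein of the foot process. Its counts were 1819, 1657 and 1702 in Control and 2167, 2437 and 1746 in KC-Tie2 libraries. As with Podxl, replicate 3 was inside the Control range and the other KC-Tie2 libraries were above it. The fold of Synpo was 1.22 (95% interval 1.03 to 1.44, log2 difference 0.28 ± 0.11, limma adjusted p = 0.254). The gene (ENSMUSG00000043079) lies on chromosome 18, 60727045 to 60793214.

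Ptpro encodes a receptor-type tyrosine phosphatase of the podocyte's apical surface, known as GLEPP1. It had 392, 310 and 337 in Control and 439, 592 and 356 in KC-Tie2 libraries. KC-Tie2 replicate 2 stood at 171% of the Control mean, the highest relative value of any of the 8 genes, and replicate 3 at 103%. Ptpro therefore had the highest estimate of the 8 together with the widest interval, a fold of 1.31 (95% interval 0.993 to 1.73, log2 difference 0.39 ± 0.18, limma adjusted p = 0.337). The gene (ENSMUSG00000030223) lies on chromosome 6, 137229317 to 137440231.

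Wt1 encodes the zinc finger transcription factor that specifies podocytes and keeps their program active in the adult. It had 250, 224 and 221 in Control and 260, 290 and 222 in KC-Tie2 libraries. The groups overlapped, with KC-Tie2 replicate 3 at the level of Control replicates 2 and 3. The log2 difference of Wt1 was 0.15 ± 0.13 (fold 1.11, 95% interval 0.911 to 1.35, limma adjusted p = 0.657). Wt1 (ENSMUSG00000016458) lies on chromosome 2, 104956874 to 105003961.

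The remaining genes encode scaffolds on the inner side of the diaphragm. Magi2, a PDZ-domain scaffold that binds nephrin, had 768, 732 and 775 in Control and 816, 895 and 638 in KC-Tie2 libraries. KC-Tie2 libraries thus held both the highest and the lowest Magi2 value, and replicate 3 was at 84.1% of the Control mean. The log2 difference of Magi2 was 0.03 ± 0.11 (95% interval -0.21 to 0.28, limma adjusted p = 0.929), and its sign turned to -0.005 without KC-Tie2 replicate 1 and to -0.07 without replicate 2. Cd2ap, an adaptor that links nephrin to actin, had 3134, 3458 and 2826 in Control and 3297, 3272 and 3341 in KC-Tie2 libraries. The KC-Tie2 values of Cd2ap had a coefficient of variation of 1.07% and lay inside the Control range. Its log2 difference was 0.08 ± 0.08 (95% interval -0.09 to 0.25, limma adjusted p = 0.707). Magi2 (ENSMUSG00000040003) lies on chromosome 5, 19432034 to 20909790, and Cd2ap (ENSMUSG00000061665) on chromosome 17, 43103842 to 43187556.

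Upstream sequences are shown for Nphs1 and Plce1, the genes without overlap, for Ptpro, which has the highest estimate, and for Cd2ap, whose libraries did not follow the others. Each run is the 250 bases before the RefSeq start on GRCm38.p6, 5′ to 3′ on the gene's strand. RefSeq entries matched 5 of the 8 genes, with 6 start sites. Capitals mark GTGGGNG on either strand, the core shared by binding motifs of EGR-type zinc fingers, the class to which WT1 belongs. Plce1 has no capitals.
Nphs1: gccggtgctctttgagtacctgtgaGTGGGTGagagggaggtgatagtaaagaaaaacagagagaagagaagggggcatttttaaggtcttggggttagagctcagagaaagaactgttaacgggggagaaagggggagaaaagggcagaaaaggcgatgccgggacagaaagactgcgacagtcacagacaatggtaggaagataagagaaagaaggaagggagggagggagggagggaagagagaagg
Plce1: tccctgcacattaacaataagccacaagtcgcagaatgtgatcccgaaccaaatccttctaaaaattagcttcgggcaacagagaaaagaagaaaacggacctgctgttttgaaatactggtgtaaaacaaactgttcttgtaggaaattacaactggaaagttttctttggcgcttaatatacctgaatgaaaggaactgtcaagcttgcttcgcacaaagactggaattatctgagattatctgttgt
Ptpro: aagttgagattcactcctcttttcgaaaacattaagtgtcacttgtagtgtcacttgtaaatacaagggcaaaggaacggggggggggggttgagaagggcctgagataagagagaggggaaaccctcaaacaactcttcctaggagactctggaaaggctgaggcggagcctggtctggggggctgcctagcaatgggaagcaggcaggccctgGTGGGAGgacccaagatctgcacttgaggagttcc
Cd2ap: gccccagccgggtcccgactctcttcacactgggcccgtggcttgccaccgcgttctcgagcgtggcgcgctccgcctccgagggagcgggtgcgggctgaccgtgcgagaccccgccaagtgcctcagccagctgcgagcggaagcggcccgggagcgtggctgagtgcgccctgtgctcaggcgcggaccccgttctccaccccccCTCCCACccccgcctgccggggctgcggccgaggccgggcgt
These windows are chr7:30459808-30460057 (plus strand), chr19:38523947-38524196 (plus), chr6:137252049-137252298 (plus) and chr17:42876425-42876674 (minus). The match begins 225 bases before the start in Nphs1, 35 in Ptpro and 42 in Cd2ap, where it reads on the opposite strand. Of all 32851 windows of 250 bases in the same table, 28.1% hold GTGGGNG. The E-box CANNTG, the motif class of TCF21 and other basic helix-loop-helix factors, occurs 0 times in the Nphs1 window, 1 time in that of Plce1, 3 times in that of Ptpro and 2 times in that of Cd2ap, and in 66.2% of all windows. The windows differed in composition, with a GC content of 50.8% in Nphs1, 38.8% in Plce1, 53.6% in Ptpro and 76.4% in Cd2ap against a median of 52.4%. A match is a description of letters and not of binding.

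The order of levels among the genes was taken per length, as normalized counts per kilobase of merged exons of the GENCODE M21 annotation. The sources used here do not name the annotation behind the counts, so these lengths are approximate. Podxl was highest in all 6 libraries, with a mean of 942 per kilobase in Control and 1132 in KC-Tie2 kidneys. Cd2ap (198 and 208) and Synpo (181 and 222) came next and exchanged places between libraries. Nphs1 followed (146 and 186), then Magi2 (66.8 and 69) and Ptpro (51.5 and 68.7), which overlapped each other over the libraries. Wt1 (37.4 and 41.5) and Plce1 (21.7 and 27) were the lowest in every library.

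The libraries of one genotype differed at these genes in a common way. KC-Tie2 replicate 2 was the highest of all 6 libraries at 6 of 8 genes, and the order replicate 2, replicate 1, replicate 3 held within KC-Tie2 at 6 of 8. The share of all genes with such standings was not taken. Most of the 8 genes moved together over the libraries, so these counts are not independent observations. Relative to the Control mean, the 8 genes had a median of 124% in KC-Tie2 replicate 1, 134% in replicate 2 and 103% in replicate 3. In the Control libraries the same median was 106%, 97.6% and 96.2%. KC-Tie2 replicate 2 also had the lowest haemoglobin sum (919, against 1422 to 2155 in the Control libraries, 4956 in KC-Tie2 replicate 1 and 3926 in replicate 3). Its depth, 29.5, was close to that of Control replicate 2 (29.4). The part of residual blood in these values was not tested.

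Without KC-Tie2 replicate 3, 3 of the 8 genes were called higher: Nphs1 (log2 difference 0.47, limma adjusted p = 0.00816), Synpo (0.41, adjusted p = 0.0207) and Podxl (0.37, adjusted p = 0.0422). Leaving that library out also raised the calls over the whole table to 3.89% of genes, and the calls higher in KC-Tie2 to 1.77%. Leaving out any one of the other 5 libraries left none of the 8 called. Over the 6 fits that each leave out 1 library, the log2 difference ranged from 0.28 to 0.47 for Nphs1, from 0.24 to 0.38 for Plce1, from 0.17 to 0.37 for Podxl, from 0.17 to 0.41 for Synpo, from 0.20 to 0.56 for Ptpro, from 0.06 to 0.25 for Wt1 and from 0.005 to 0.15 for Cd2ap. The lower ends of Podxl, Synpo, Ptpro and Wt1 came without KC-Tie2 replicate 2, and the upper end of Wt1 without KC-Tie2 replicate 3. For Cd2ap the lower end came without Control replicate 3 and the upper end without Control replicate 2.

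**Figure D2:**
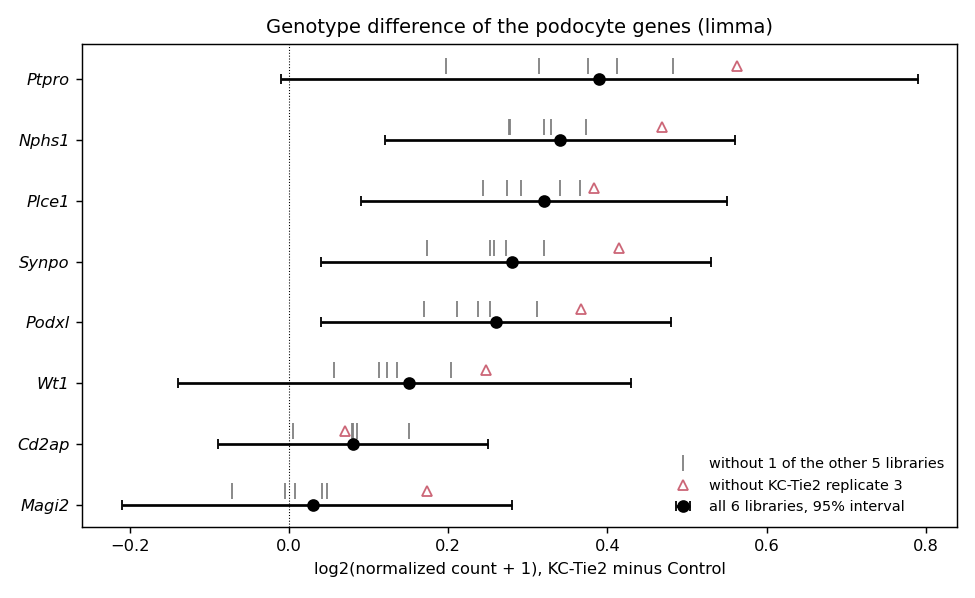
Log2 difference, KC-Tie2 minus Control (x axis, log2(normalized count + 1)), of the 8 genes with all 6 libraries (black, 95% interval). Grey bars leave out 1 of the other libraries, and open triangles leave out KC-Tie2 replicate 3, which moves Nphs1 from 0.34 to 0.47 and Magi2 from 0.03 to 0.17.

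To compare the genes with each other inside one library, each was divided by Wt1, whose protein is a nuclear marker of podocytes. This ratio was chosen after the values were seen. Nphs1 was 4.03, 4.24 and 4.25 times Wt1 in the Control libraries and 5.14, 4.6 and 4.6 times in the KC-Tie2 libraries. The KC-Tie2 ratios lay above all Control ratios, replicate 3 included. The same lack of overlap held for Podxl (21.9 to 22.9 in Control, 23.9 to 24.5 in KC-Tie2), Synpo (7.28 to 7.72 and 7.85 to 8.4) and Ptpro (1.38 to 1.57 and 1.6 to 2.04). A ratio to Wt1 that lay above Control without overlap was seen at 2.77% of the 17538 other genes tested, which share the same Wt1 values. Without the division, the share of genes above Control without overlap was 9.96%. Wt1 itself had a log2 difference of 0.15, which lowers the ratio of a gene that did not change. Wt1 also moved with the other members over the libraries (Pearson's r 0.957). The 2.77% is therefore not a like background for the members. On the log2 scale these ratios differed by 0.19 for Nphs1, 0.11 for Podxl, 0.14 for Synpo and 0.24 for Ptpro. Each gave an exact two-sided permutation p of 0.1, the smallest that 3 against 3 allows, and 0.175 after Benjamini-Hochberg adjustment over the 7 ratios compared. Plce1 (difference 0.17, exact permutation p = 0.2), Magi2 (-0.11, exact permutation p = 0.3) and Cd2ap (-0.07, exact permutation p = 0.6) overlapped between genotypes. All ratios share the Wt1 value of their library, and Wt1 has the largest counting error of the 8 genes, 5.4% to 7.8% by library. The closest Control and KC-Tie2 ratios were 22.9 and 23.9 for Podxl, 7.72 and 7.85 for Synpo and 1.57 and 1.6 for Ptpro. Those gaps are smaller than that counting error. For Nphs1 the closest ratios were 4.25 and 4.6, a wider gap.

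**Figure D3:**
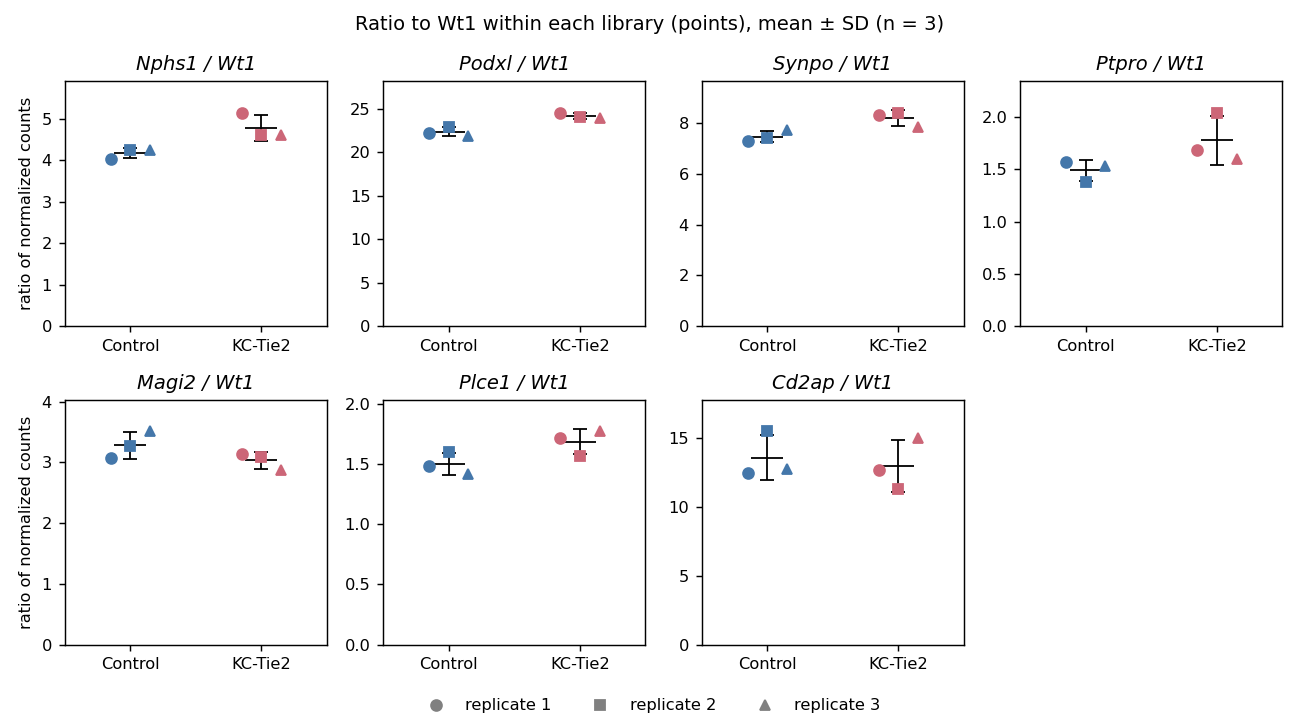
Ratio of normalized counts to Wt1 within each library (y axis, starting at 0) for the other 7 genes. Symbols mark the replicate, black bars mean ± SD (n = 3). The KC-Tie2 libraries lie above the Control libraries at Nphs1, Podxl, Synpo and Ptpro and overlap with them at Magi2, Plce1 and Cd2ap.

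Other components of the slit diaphragm were read from a separate list of partners and adaptors, 12 of 16 of which were in the table (not Kirrel1, Kirrel2, Kirrel3 and Trpc6). Of these 12, 11 were above 0, 1 rose and none fell, with a median log2 difference of 0.12. Among all genes tested, 50.3% were above 0 and 0.855% were called higher. The gene that rose was Iqgap1, a scaffold of actin and nephrin that many cell types express. It had 3902, 4351 and 3857 in Control and 5274, 5303 and 4749 in KC-Tie2 libraries, without overlap (log2 difference 0.34 ± 0.08, limma adjusted p = 0.0484). Its call was lost without either Control replicate 1 or 3 or KC-Tie2 replicate 1 or 2, with adjusted p between 0.0236 and 0.239 over the 6 fits, and also with a mean of at least 100 (0.0532) and without robust eBayes (0.0606). Fat1, a giant protocadherin of the slit, had a log2 difference of 0.18 ± 0.08 (limma adjusted p = 0.29), and the cytoplasmic podocyte protein gene Ddn 0.31 ± 0.14 (adjusted p = 0.327).

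Of 15 genes of the foot process cytoskeleton, all were above 0 and none was called (median 0.17). Nes, which encodes the intermediate filament nestin of podocytes, had 802, 809 and 666 in Control and 1107, 1210 and 836 in KC-Tie2 libraries (log2 difference 0.46 ± 0.14, limma adjusted p = 0.164). Anln, an actin-binding protein of dividing cells that is also linked to inherited glomerular disease, had 26.8 ± 4.89 and 59.7 ± 22.3 (adjusted p = 0.129). Ezr, the linker between podocalyxin and actin, had a log2 difference of 0.19 ± 0.08 (adjusted p = 0.261).

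Of 8 podocyte transcription factors, 5 were above 0 and none was called (median 0.03). Foxc1 had 466 ± 7.77 in Control and 559 ± 60.3 in KC-Tie2 libraries (SD, n = 3), without overlap (log2 difference 0.26 ± 0.09, limma adjusted p = 0.205). Lmx1b had a log2 difference of 0.37 ± 0.23 (adjusted p = 0.494) and Foxd1 of 0.47 ± 0.38 (adjusted p = 0.614). Without Control replicate 3 these were 0.15 for Lmx1b and 0.133 for Foxd1, and Foxc1 had 0.172 without KC-Tie2 replicate 2. Tcf21 had 247 ± 38.9 and 245 ± 41.4, a log2 difference of -0.01 ± 0.16 whose sign turned in 4 of the 6 fits that leave out a library. Among 14 other podocyte-enriched genes 10 were above 0 and none was called (median 0.15). The secreted semaphorin gene Sema3g had 1313 ± 143 and 1940 ± 387 (log2 difference 0.55 ± 0.16, adjusted p = 0.161), and Bmp7 0.33 ± 0.09 (adjusted p = 0.089). The secreted protease gene Htra1 went the other way, from 2138 ± 155 to 1735 ± 233 (-0.31 ± 0.09, adjusted p = 0.143). Cdkn1c, a cell cycle inhibitor of mature podocytes, had 332 ± 63.2 and 391 ± 69, a log2 difference of 0.238 that was 0.071 without Control replicate 2.

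Of 13 genes of the glomerular basement membrane and its receptors, 12 were above 0, none was called, and the median was 0.07. The highest by their p-values were the laminin chains Lamb2 (log2 difference 0.24 ± 0.09, limma adjusted p = 0.202) and Lamc1 (0.18 ± 0.07, adjusted p = 0.218) and the linker Nid1 (0.22 ± 0.10, adjusted p = 0.308, and 0.133 without Control replicate 3). Of 8 tested genes reported to rise in injured podocytes, 3 were above 0 and limma called none (median -0.12). Lgals3, which macrophages and tubules also express, had 390 ± 27.3 and 562 ± 89.1 (adjusted p = 0.0574), Tgfb1 303 ± 28.3 and 368 ± 4.82 (adjusted p = 0.208) and Plaur 66.2 ± 29.1 and 97 ± 18.4 (adjusted p = 0.418). In the authors' deposited table Lgals3 is higher with a ratio of 1.44 and an FDR of 0.0102, alone in the injury list. Without Control replicate 3 the log2 difference of Plaur was 0.224 in place of 0.641. Des, an intermediate filament gene also made by mesangial and muscle cells, had 269 ± 17.2 and 227 ± 37.8. Over these podocyte lists without the injury list, 1 of 62 tested genes rose and none fell (1.69% of all genes were called). At a limma unadjusted p under 0.05, 15 were higher and 1 was lower, where 7.57% of all genes were higher. Of 57 tested markers of other cell types, described below, 14 were higher and 6 lower at that level. The higher ones include 6 of 10 markers from the loop to the collecting duct, so such an excess was not particular to podocyte genes. The 62 podocyte list genes summed to 143035 to 151558 in Control and 150350 to 163056 in KC-Tie2 libraries. The part of cells other than podocytes in these sums and counts was not tested. In the authors' deposited table, 4 of the 62 podocyte list genes had an FDR under 0.05, all higher: Iqgap1, Nes, Bmp7 and Sema3g. Over all genes there, 3.91% had such an FDR in either direction.

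**Figure D4:**
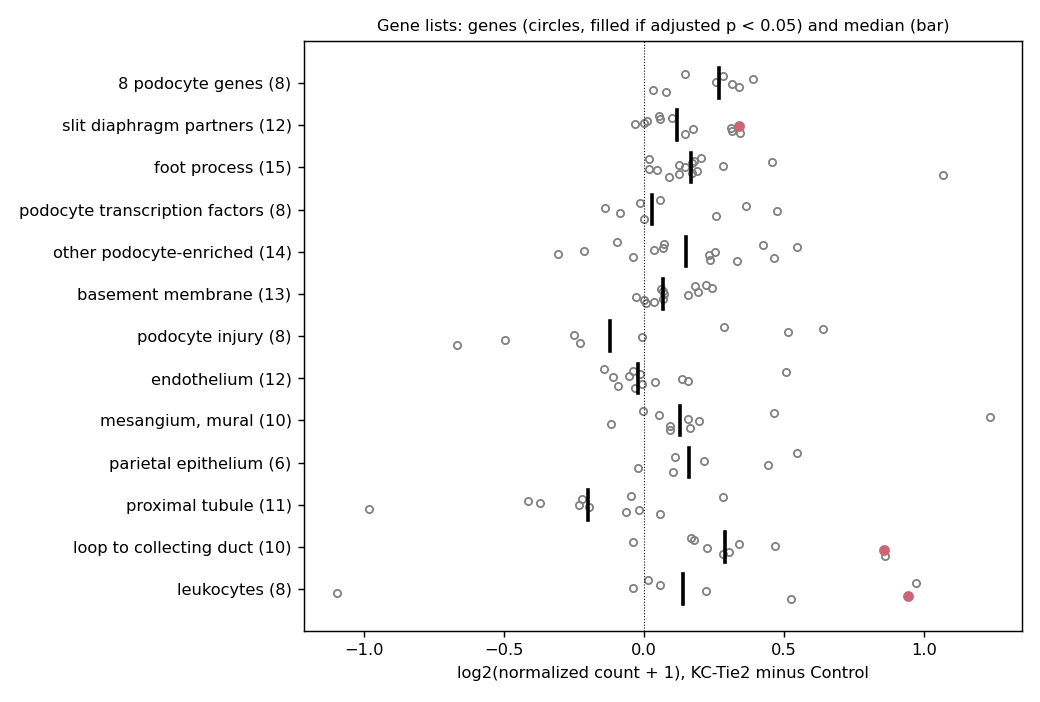
Log2 difference, KC-Tie2 minus Control (x axis, log2(normalized count + 1)), of each tested gene of 13 lists, with the number of genes in parentheses. Filled circles are called by limma and black bars are list medians, which run from -0.2 in the proximal tubule list to 0.29 in the list from the loop to the collecting duct, with 0.27 for the 8 podocyte genes.

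Markers of neighbouring cells give the setting of these values. The 12 endothelial genes, which include those of the glomerular capillary, had a median log2 difference of -0.02 and no call by limma. Their summed level was 18644 to 20111 in Control and 18650 to 20670 in KC-Tie2 libraries. Ehd3, enriched in glomerular endothelium, had 1021 ± 85.9 and 1018 ± 97.7, and Kdr, a receptor for the podocyte-derived growth factor VEGF-A, 2231 ± 58.2 and 2154 ± 208. The 3 endothelial genes with the smallest p were Tek, the mouse gene for Tie2 (-0.14 ± 0.07, limma adjusted p = 0.361), Plat (0.51 ± 0.23, adjusted p = 0.388) and Esam (0.13 ± 0.08, adjusted p = 0.48). In the authors' deposited table Plat is higher with a ratio of 1.46 and an FDR of 0.0413. Without KC-Tie2 replicate 1 the limma log2 difference of Plat was 0.255, and that of Kdr moved from -0.055 to -0.131 without KC-Tie2 replicate 2. Mesangial and mural markers summed to 6612 to 7646 in Control and 7975 to 9543 in KC-Tie2 libraries, with none of 10 called (median 0.13). Ren1, the renin gene, had 763 ± 181 and 1913 ± 982 (adjusted p = 0.289), Serpine2 246 ± 18.4 and 343 ± 64.7 (adjusted p = 0.123), and Cspg4 1125 ± 94.4 and 1258 ± 26.2 (adjusted p = 0.324). Ren1 is part of the sum, with 684, 636 and 970 in Control and 1347, 3047 and 1345 in KC-Tie2 libraries. A sum without Ren1 was not taken, so the sums alone do not show a rise of the list as a whole.

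Parietal epithelial markers, of the cells lining Bowman's capsule, had none of 6 called by limma (median 0.16). Prom1, which tubule cells also express, had 2059 ± 189 and 3026 ± 525 (limma adjusted p = 0.0635), and the authors' deposited table gives it a ratio of 1.47 and an FDR of 0.000362. Ncam1 had 170 ± 29 and 232 ± 43.1 (limma adjusted p = 0.23), and Pax8 had 2577 ± 113 and 2785 ± 49.2 (adjusted p = 0.449). Of the 11 proximal tubule markers, limma called none, 2 were above 0, and the median was -0.2. They summed to 572945 to 682802 in Control and 438496 to 541355 in KC-Tie2 libraries. Kap had the lowest difference of that list (-0.98 ± 0.22, adjusted p = 0.107), followed by Slc27a2 (-0.41 ± 0.10, adjusted p = 0.0684) and Slc22a6 (-0.37 ± 0.11, adjusted p = 0.119). Slc5a12, a lactate transporter gene of the same list, went the other way (0.28 ± 0.08, adjusted p = 0.123), with 7233 to 7834 in Control and 8244 to 9838 in KC-Tie2 libraries. In the authors' deposited table, Kap, Slc27a2 and Slc22a6 were lower and Slc5a12 higher at an FDR under 0.05. Without Kap, the other 10 markers summed to 433154 to 472311 in Control and 363914 to 422270 in KC-Tie2 libraries. Of 10 markers from the loop to the collecting duct 1 rose, the calcium-binding protein gene Calb1 (0.86 ± 0.12, adjusted p = 0.0106), with Scnn1g at 0.47 ± 0.12 (adjusted p = 0.106) and Atp6v1g3 at 0.30 ± 0.09 (adjusted p = 0.145). The authors' deposited table has 3 of the 10 higher at an FDR under 0.05: Calb1, Scnn1g and Slc12a1. Over all genes, limma called 0.855% higher, and 3.91% had an FDR under 0.05 in either direction in the authors' deposited table. Those 10 markers summed to 136873 to 141103 in Control and 146732 to 182775 in KC-Tie2 libraries. The 8 podocyte genes summed to 11944 to 13304 and 13028 to 16248, and the part of the make-up of the tissue piece in these differences was not tested.

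Leukocytes are a further possible source of Cd2ap and Ptpro transcripts. Of 12 leukocyte markers, 8 were in the table, and the lymphocyte genes Cd3e, Cd79a and Ms4a1 and the cytotoxic cell gene Nkg7 were not among its rows. Of the 8, 1 rose, where 0.855% of all genes tested did: the macrophage complement gene C1qa (132 ± 11.7 to 254 ± 5.79, limma adjusted p = 0.00742). Itgam had 29.9 ± 7.18 and 63.5 ± 29.3 (adjusted p = 0.218), and Cd4 19.8 ± 5.73 and 9.03 ± 3.99 (adjusted p = 0.316). Every gene in the table reached 24.78 or more in some library, and Cd4 did so only in Control replicate 2 (26.4). Its place in the table, and with it this difference, may therefore rest on that library. The list summed to 1691 to 2178 in Control and 2043 to 2381 in KC-Tie2 libraries, and its part in the values of Cd2ap and Ptpro was not tested.

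The pattern over libraries was also compared with other genes. The 8 genes were centred on the log2 scale and averaged, which gave -0.03, -0.13 and -0.18 in Control replicates 1 to 3 and 0.16, 0.29 and -0.10 in KC-Tie2 replicates 1 to 3. Pearson's r with the mean of the other members was 0.882 to 0.996 for Nphs1, Podxl, Synpo, Wt1, Ptpro and Plce1, 0.675 for Magi2 and 0.236 for Cd2ap, over 6 libraries. Among 12380 protein-coding genes with a mean of at least 50, the most alike were Cdk18, Actn4, Fiz1, Atp6v1b1, Nt5dc3, Cstb, Celsr1 and Erap1. They were chosen for a high r, which ran from 0.979 to 0.99 (Spearman's rho 0.943 to 1), so these values are a description. Without the 2 libraries farthest from the median, KC-Tie2 replicates 1 and 2, r was 0.753 to 0.956. Actn4 encodes the actin crosslinker alpha-actinin-4 of the foot process, which most other cells also make. It had 7291 ± 172 and 7772 ± 315 (log2 difference 0.09 ± 0.07, limma adjusted p = 0.586). Of 60 other podocyte genes compared, 6 had an r over 0.9, as did 1.84% of all genes compared.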

How the data were processed

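The submitters' processing notes name Partek 12.5.0, STAR, DESeq2 and mm39. The role of each tool, the annotation and whether strand was used are not stated there. The deposited normalized counts are a signal: in each library, 68.3% to 71% of values below 60 were whole multiples (tolerance 0.01) of a single step. They were read as estimated counts scaled by a factor for each library, and whole reads were not recovered. The lowest maximum of any gene was 24.78. The authors' deposited comparison table holds a p-value, an FDR, a ratio, a signed fold change (a score) and model means per gene, which were copied and not retested.

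Columns were matched to samples by library name. Values were transformed as log2(value + 1), genes with a mean of at least 10 were kept, and genotype was tested by limma 3.58.1 (R 4.3.3) with a trended, robust eBayes step on 4 residual and a median of 7.79 prior degrees of freedom, two-sided, with Benjamini-Hochberg adjustment. Intervals are 95% intervals of that fit. The fit was tested on simulated data. Python 3.11.15, pandas 2.3.3, numpy 2.4.6, scipy 1.17.1 and matplotlib 3.10.9 made the descriptions and figures. Promoter sequences are from RefSeq, build GRCm38.p6, and exon lengths from GENCODE M21; both were matched by name or gene ID, without converting coordinates.

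The 8 genes and the lists were chosen with earlier results of these data known. Named genes were all 8, the 3 genes of each list with the smallest p, and the 8 genes most alike over libraries. Some genes of the lists are not reported here and were left out of list counts. Tcf21, Cdkn1c, Ehd3, Kdr, Des, Slc5a12 and Slc12a1 were named after their values were seen. The fit was repeated with added constants of 0.5 and 5, without the filter or with a minimum mean of 100, after median-of-ratios or quantile scaling, with replicate number as block, with plain eBayes, with library weights, and leaving out every library once.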

Additional observations from a re-analysis of the deposited data

How the results depend on the processing

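Of 120 refitted differences of the 8 genes, 115 kept their direction and their side of the threshold, 3 came to pass it (Nphs1, Podxl and Synpo without KC-Tie2 replicate 3) and 2 changed sign, both of Magi2, which ranged from -0.072 to 0.173 (-0.005 without KC-Tie2 replicate 1). Without 1 library each, called members numbered 0 to 3, other podocyte genes 0 to 5 against 1, markers of other cell types 2 to 9 against 2, and all genes 48 to 682 against 297. Other podocyte genes called numbered 0 with a mean of at least 100 and 0 with eBayes not robust, so the call of Iqgap1 did not outlast either. Markers of other cell types called numbered 4 with quantile normalization and 5 with weights per library, and weights per library gave 549 calls over all genes. Of 639 refitted differences of the other named genes, 8 changed sign: Tcf21 ranged from -0.148 to 0.089 and Ehd3 from -0.083 to 0.037 over the fits that leave out 1 library.

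The labels state no pairing of same-numbered libraries of the genotypes. Their deviations from the group means correlated at 0.178, -0.096 and 0.017, and those of differently numbered libraries at -0.283 to 0.26. With 3 libraries per genotype, these correlations cannot show whether there was any pairing. With the replicate block, 0 of the 8 genes, 3 other podocyte genes, 6 markers of other cell types and 581 genes in all were called. Depth limits Wt1 most, with 163 to 348 estimated counts per library.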
